A study of Mus musculus with 12 samples.

Results

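The genes described here encode the proteasome and the factors that build it. They were taken by symbol, as the protein-coding genes of the Psma, Psmb, Psmc, Psmd, Psme, Psmf and Psmg series without the 3 immunoproteasome subunits Psmb8, Psmb9 and Psmb10, together with Pomp and Nfe2l1. This gave 49 of the 49315 genes in the count tables, and 47 of them had enough counts to be tested. The other two were Psma8, a testis form of an alpha subunit, with 0 counts in all 12 libraries, and Psmb11, the thymus form of a catalytic subunit, with 0 to 3 counts. One further gene, Psmc3ip, came in through its symbol alone: it encodes HOP2, a meiotic recombination factor. It is described apart from the proteasome genes below, but it is included wherever counts, shares or medians of all members are given.

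The libraries came from mouse embryonic fibroblasts (MEFs), connective tissue cells grown from mouse embryos. The labels name no strain, genotype or clone for them. The cells were kept for 24 h with DMSO as the control, with rapamycin at 20 ng/ml, with Torin1 at 250 nM or with RapaLink-1 at 10 nM, with 3 libraries for each of the 4 treatments. Rapamycin binds FKBP12 and, with it, the kinase complex mTORC1, Torin1 competes with ATP at the mTOR kinase, and RapaLink-1 joins rapamycin to an mTOR kinase inhibitor. Each compound was given at a single dose and the doses are not matched, which every difference between compounds below carries with it.

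The proteasome degrades proteins tagged with ubiquitin. Its barrel-shaped core stacks rings of alpha and beta subunits, with the proteolytic sites on the beta subunits PSMB5, PSMB6 and PSMB7. A cap sits on the barrel: the ATPases of its base unfold the substrate, other base subunits hold ubiquitin or bind shuttle proteins, and the lid carries PSMD14, the enzyme that removes the ubiquitin chain. Other activators can take the place of the cap, and dedicated chaperones assemble core and base. The transcription factor NFE2L1 (NRF1) raises proteasome genes through antioxidant response elements when degradation falls short, and mTORC1 has been linked both to NFE2L1 through SREBP1 and to protein degradation itself.

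Total counts were 30075870 to 39423703 per library. Mitochondrially encoded messages took 1.08% to 1.39% of them, lowest with DMSO and highest with Torin1, and the part of this in the results was not tested. Fibroblast markers such as Col1a1, Vim and Fn1 were abundant in all 4 groups, while Lum was near 0. The 4 leukocyte markers summed to 1.79 to 3.04 CPM over all libraries, nearly all of it Cd68, with Ptprc at 0 to 2 counts and Cd3e at 0. The 4 epithelial markers summed to at most 0.642 CPM with DMSO and 1.2 with Torin1, and Epcam had 0 to 11 counts while Krt8 rose with Torin1, from 0 to 2 counts in DMSO libraries to 12 to 22. The 4 endothelial markers summed to 0.762 to 1.56 CPM in DMSO libraries and 1.12 to 1.56 under rapamycin. They reached 2.32 to 2.48 CPM under Torin1 and 2.65 to 2.93 under RapaLink-1. Most of this was Kdr, which rose with Torin1 and RapaLink-1, and Cdh5 had 0 to 3 counts. The 4 germ cell markers reached at most 0.48 CPM, with Mael at 0. The part of these markers in the results was not tested. Whether the 3 libraries of a treatment were grown as separate cultures is not stated, so the tests gauge the spread among these samples, and that spread may be technical.

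Promoter sequences of 41 members were found in the RefSeq table for GRCm38.p6, which held 48 promoters for them, 28 of these for 26 genes of the core and cap. The antioxidant response element core was searched as TGANNNNGC on both strands in the 250 bases before the start, and its narrower form TGACNNNGC, which lies within it, in the same way. The wider motif stood in 39.3% of the core and cap promoters and in 35.4% of the 20080 promoters of all protein-coding genes. For the narrower form the shares were 14.3%, which is 4 promoters, and 10.6%. A CCAAT box, searched as CCAAT, was found in 39.3% against 35% of all promoters, and the E-box CACGTG in 3.57%, which is 1 promoter, against 6.79%. With the first 50 bases after the start included, the wider motif reached 57.1% against 41.8%, and the narrower one stayed at 14.3% against 13.1%.

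The 4 core and cap promoters with the narrower motif are shown with up to 20 bases on each side because they carry the letters closest to a response element, with the match in capitals and each read along the strand of its gene. They belong to the catalytic subunits Psmb5 (chr14:54618014-54618062, minus strand) and Psmb6 (chr11:70525328-70525356, plus strand), the ATPase Psmc6 (chr14:45329577-45329625, plus strand) and the lid subunit Psmd12 (chr11:107479278-107479309, plus strand). The last 2 matches lie on the opposite strand of the gene.
Psmb5: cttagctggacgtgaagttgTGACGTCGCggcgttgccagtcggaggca
Psmb6: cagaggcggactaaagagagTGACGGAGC
Psmc6: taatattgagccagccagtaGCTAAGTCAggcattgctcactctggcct
Psmd12: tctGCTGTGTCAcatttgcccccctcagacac

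The next set holds the wider motif in genes at both ends of the response described below: Psmb3 (chr11:97703404-97703433, plus strand) and Psmd1 (chr1:86064375-86064423, plus strand), with the largest falls under Torin1, and Psma6, with the smallest of the core and cap subunits, in each of its 2 promoters (chr12:55384032-55384080 and chr12:55398713-55398761, plus strand, both matches on the opposite strand).
Psmb3: ttcggcaagagcgttgacccTGAGAAAGCc
Psmd1: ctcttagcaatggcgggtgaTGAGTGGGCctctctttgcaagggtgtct
Psma6 first promoter: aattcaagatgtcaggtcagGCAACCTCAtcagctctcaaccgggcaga
Psma6 second promoter: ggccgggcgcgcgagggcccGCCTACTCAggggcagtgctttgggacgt
The starts are those of RefSeq. The matches of Psmb3, Psmd1 and the second Psma6 promoter lie inside these genes as counted, which begin further upstream. A match describes these letters only. Psmb3, Psmd1 and Psma6 were picked from both ends of the response, and whether a match goes with the size of a fall was not tested.

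Messages of the proteasome took a smaller share of all counts with each compound. All 49 members together made up 0.835% to 0.838% of the counts of the DMSO libraries. Their share was 0.652% to 0.663% under rapamycin, 0.485% to 0.49% under Torin1 and 0.5% to 0.502% under RapaLink-1. The 4 groups did not overlap in this share, Torin1 being the lowest. In CPM (counts as a fixed rate of the TMM-scaled library total), the summed level of the core and cap was 71.9% ± 1.05 of the DMSO mean with rapamycin (SD, n = 3), 53.4% ± 0.388 with Torin1 and 53.1% ± 0.119 with RapaLink-1. For all 49 members this sum overlapped between Torin1 (56.46% to 57.04%) and RapaLink-1 (56.75% to 56.91%). The separation of Torin1 and RapaLink-1 in the share of counts thus depends on the scaling. The assembly chaperones kept more of their level, 80.2% ± 1.14, 68.9% ± 0.367 and 68.3% ± 0.101. These are shares of the RNA sequenced: in bulk RNA, fewer cells of a type and less RNA per cell cannot be told apart, and RNA per cell was not measured.

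**Figure D1:**
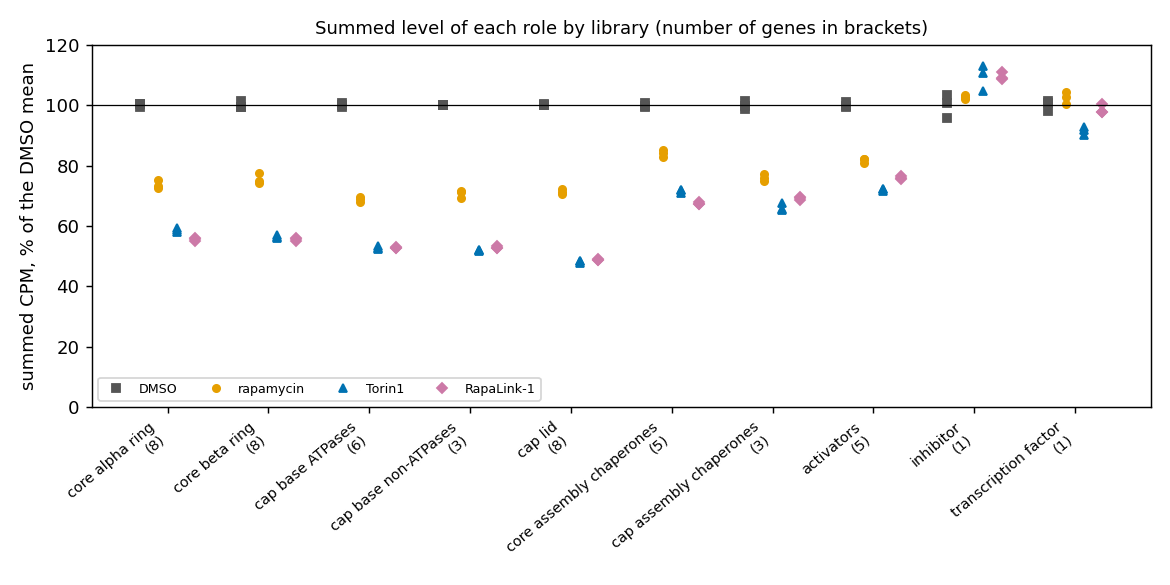
Summed CPM of each role in each of the 12 libraries, as a percentage of the mean of the 3 DMSO libraries (vertical axis from 0), with the number of genes in brackets and 1 point per library. Ranges given here are of means of 3 libraries. The 5 groups of core and cap subunits lie at 68.8% to 75.6% with rapamycin and 48.1% to 58.7% with the other compounds. The means of the inhibitor Psmf1 and the transcription factor Nfe2l1 with the compounds lie between 91.5% and 109.5%.

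Against DMSO, 42 of the 47 tested members fell with rapamycin, 41 with Torin1 and 40 with RapaLink-1 (edgeR quasi-likelihood test, adjusted p under 0.05 over 15917 genes), and 3, 5 and 5 rose. Of all genes tested, 32.2%, 38.3% and 37.9% fell and 27.5%, 39.8% and 38.7% rose. The median log2 fold change of the members was -0.43, -0.86 and -0.81, beside medians over all genes of 0.0043, 0.0385 and 0.026. Falls of at least 2-fold numbered 0 with rapamycin, 15 with Torin1 and 14 with RapaLink-1, where 0.528%, 6.35% and 5.77% of all genes fell that far. The members that rose were Psme1, Psme2 and Psme2b with every compound, joined by Psmf1 and Psmd10 with Torin1 and RapaLink-1.

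**Figure D2:**
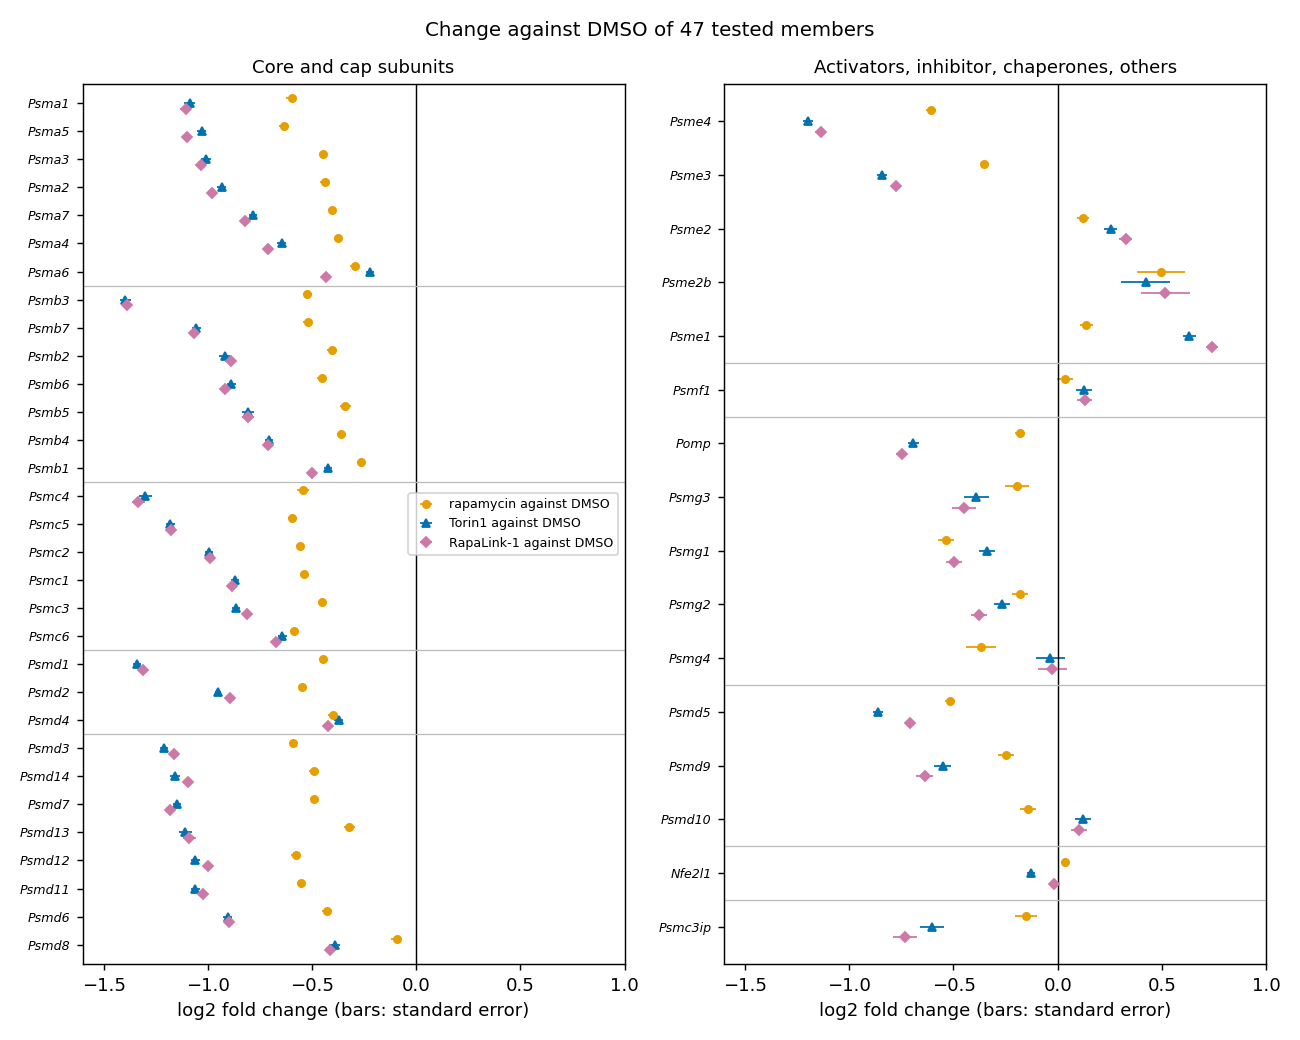
Log2 fold change against DMSO (horizontal axis, bars the standard error) of the 47 tested members, in the order of their roles (separated by grey lines) and within a role by the change with Torin1. The 31 core and cap subunits among them lie left of 0 with each compound, from -1.39 (Psmb3) to -0.22 (Psma6) with Torin1. Psme1, Psme2 and Psme2b lie right of it.

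In the alpha ring, which forms the gate of the core, all 7 tested subunits fell with each compound, with medians of -0.44 for rapamycin, -0.93 for Torin1 and -0.98 for RapaLink-1. Psma1 (chr7:114264606-114276118, ENSMUSG00000030751) fell furthest under Torin1. Its libraries read 148, 144 and 149 CPM with DMSO, 99.3, 93.3 and 98.4 with rapamycin, 71.2, 69.1 and 67.7 with Torin1 and 69.2, 66.6 and 69.2 with RapaLink-1. The log2 fold change against DMSO was -0.60 (SE 0.0244, adjusted p = 1.03e-54) with rapamycin, -1.09 (SE 0.0258, adjusted p = 9.3e-88) with Torin1 and -1.11 (SE 0.0258, adjusted p = 1.06e-88) with RapaLink-1. Its levels thus stepped down from DMSO to rapamycin to the other compounds, with no overlap between these steps.

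Psma6 (chr12:55384222-55418454, ENSMUSG00000021024) departed from that order and, by all exonic bases, had the highest level per length of the ring over the 12 libraries. It read 215, 213 and 212 CPM with DMSO, 178, 170.5 and 173 with rapamycin, 186, 185 and 179 with Torin1 and 159, 153 and 163 with RapaLink-1. Its Torin1 libraries lay above its rapamycin libraries, and its RapaLink-1 libraries were the lowest. Against DMSO the log2 fold changes were -0.30 (SE 0.0205, adjusted p = 1.36e-29), -0.22 (SE 0.0204, adjusted p = 2.12e-20) and -0.43 (SE 0.0208, adjusted p = 2.19e-46). RapaLink-1 left Psma6 at 86.5% of its Torin1 level, a log2 difference of -0.21 (SE 0.0212, adjusted p = 8.82e-17), the largest between these compounds among the 47 members. The small rise from rapamycin to Torin1, 0.074 (SE 0.0209, adjusted p = 0.00103), did not pass the threshold with total counts as the scaling (0.029, adjusted p = 0.219), without Torin1 replicate 1 (0.042, adjusted p = 0.105) or without Torin1 replicate 2 (0.047, adjusted p = 0.0675). The remaining alpha subunits, Psma2, Psma3, Psma4, Psma5 and Psma7, all fell. Their log2 fold changes spanned -0.63 to -0.38 under rapamycin, -1.03 to -0.65 under Torin1 and -1.10 to -0.71 under RapaLink-1, from Psma5 to Psma4 each time.

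All 7 tested subunits of the beta ring fell as well, with medians of -0.40, -0.89 and -0.89. Psmb3 (chr11:97703399-97713500, ENSMUSG00000069744), a structural beta subunit without a proteolytic site, had the largest fall of any member under both Torin1 and RapaLink-1. It read 174, 172 and 176 CPM with DMSO, 124.7, 117 and 121 with rapamycin, 67.7, 65.6 and 65.5 with Torin1 and 65.7, 67.2 and 66.8 with RapaLink-1. With Torin1 it stood at 38.0% of its DMSO level, a log2 fold change of -1.39 (SE 0.0249, adjusted p = 3.09e-106), and with RapaLink-1 at 38.2%, -1.39 (SE 0.0248, adjusted p = 8.7e-106). With rapamycin it stood at 69.7%, -0.52 (SE 0.0226, adjusted p = 1.88e-51). Torin1 and RapaLink-1 libraries overlapped, and all lay far below those of rapamycin. Psmb3 has 2 close pseudogene copies, which took 0.106% as many counts.

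By all exonic bases, Psmb1, another structural subunit, had the highest level per length of all members in DMSO cells, 254 ± 1.1 RPKM (CPM per kilobase of exon, SD, n = 3). Psmb1 also had the smallest fall of its ring under Torin1. It read 264, 262 and 264 CPM with DMSO, 224, 217 and 217 with rapamycin, 199, 195 and 194 with Torin1 and 186, 184 and 187 with RapaLink-1. The log2 fold changes were -0.26 (SE 0.0188, adjusted p = 1.02e-28), -0.42 (SE 0.0191, adjusted p = 5.99e-50) and -0.50 (SE 0.0192, adjusted p = 7.61e-59). Its 12 libraries fell into 4 steps without overlap, RapaLink-1 being the lowest.

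The 3 catalytic subunits fell with every compound. Psmb5 (chymotrypsin-like site) read 100.1, 99.2 and 103 CPM with DMSO, 81.8, 78.4 and 78.6 with rapamycin, 56.9, 57.2 and 58.5 with Torin1 and 59.2, 55.6 and 58.1 with RapaLink-1. Against DMSO it changed by -0.34 (SE 0.0269, adjusted p = 9.23e-25), -0.81 (SE 0.0285, adjusted p = 1.64e-63) and -0.81 (SE 0.0285, adjusted p = 1.66e-63). Psmb6 (caspase-like site) changed by -0.45, -0.89 and -0.92, and Psmb7 (trypsin-like site) by -0.52, -1.05 and -1.07. Psmb5 is uncertain as a single gene. The pseudogene Gm3375 is 98.9% identical to it over 796 bases and took 34.6% as many counts, and 12.5% of the exonic bases of Psmb5 overlap Mir686. Gm3375 itself changed by -0.31, -0.74 and -0.84. Its counts may include reads of Psmb5, so changes of the separate loci cannot be told apart. The other beta subunits, Psmb2 and Psmb4, changed by -0.92 and -0.71 with Torin1.

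Medians were lower in the cap, where they were, over the 17 cap subunits among the members, -0.54, -1.06 and -0.999, beside -0.42, -0.90 and -0.90 over the 14 tested core subunits. The difference between these medians was not tested. Among the 6 ATPases of the base, Psmc4 (chr7:28041707-28050101, ENSMUSG00000030603) had the largest fall under Torin1. It read 96.5, 98.1 and 97.2 CPM with DMSO, 65.2, 66.2 and 68.8 with rapamycin, 40.7, 38.4 and 39.7 with Torin1 and 38.0, 38.8 and 38.96 with RapaLink-1. On the log2 scale it changed by -0.54 (SE 0.0283, adjusted p = 4.57e-42), -1.30 (SE 0.0311, adjusted p = 2.5e-87) and -1.33 (SE 0.0312, adjusted p = 1.14e-88). Torin1 and RapaLink-1 libraries of Psmc4 overlapped.

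Psmc1 had the highest level per length among the ATPases, 198 ± 3.02 RPKM in DMSO cells. It read 305, 296 and 299 CPM with DMSO, 209, 206 and 205 with rapamycin, 167, 163 and 163 with Torin1 and 163, 161 and 164 with RapaLink-1. Its log2 fold changes of -0.54 (SE 0.0188, adjusted p = 2.04e-63), -0.87 (SE 0.0193, adjusted p = 6.17e-92) and -0.88 (SE 0.0194, adjusted p = 8.64e-93) lay close to the median of the base ATPases.

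Psmc6, another member of the ATPase ring, fell with rapamycin and had little further fall with the other compounds. It read 239.7, 238 and 237 CPM with DMSO, 163, 156 and 157 with rapamycin, 152, 154 and 152 with Torin1 and 155, 145 and 149 with RapaLink-1. Rapamycin lowered it about as far as the other compounds did, with log2 fold changes of -0.59 (SE 0.0205, adjusted p = 2.53e-63), -0.64 (SE 0.0206, adjusted p = 3.87e-69) and -0.67 (SE 0.0207, adjusted p = 1.73e-71). The difference between Torin1 and rapamycin was -0.056 (SE 0.0216, adjusted p = 0.0162), with a 95% interval of -0.10 to -0.014. That small fall did not hold with upper-quartile scaling (0.0076, adjusted p = 0.774), with a minimum mean of 5 CPM (-0.023, adjusted p = 0.323) or without rapamycin replicate 1 (-0.037, adjusted p = 0.161). For the other 5 ATPases the difference between Torin1 and rapamycin was -0.33 to -0.76.

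Of the base subunits without ATPase activity, Psmd1 and Psmd2 are the large scaffolds that bind shuttle proteins and Psmd4 is a ubiquitin receptor. Psmd1 (chr1:86064387-86139151, ENSMUSG00000026229) read 390.5, 392 and 384 CPM with DMSO, 284, 282 and 288 with rapamycin, 149, 159 and 152 with Torin1 and 157, 156 and 157 with RapaLink-1. Its log2 fold changes were -0.45 (SE 0.0179, adjusted p = 9.57e-56), -1.34 (SE 0.0192, adjusted p = 1.53e-120) and -1.31 (SE 0.0192, adjusted p = 4.18e-119), and of all members it had the largest fall from rapamycin to Torin1, -0.89 (SE 0.0197, adjusted p = 6.81e-92). Psmd2, the highest of the 3 per length at 212 ± 1.65 RPKM in DMSO cells, read 857, 849 and 862 CPM with DMSO, 591, 569.6 and 594 with rapamycin, 446, 440.4 and 442 with Torin1 and 461, 466 and 458 with RapaLink-1. Its log2 fold changes were -0.55 with rapamycin, -0.95 (SE 0.0158, adjusted p = 9.83e-111) with Torin1 and -0.89 (SE 0.0158, adjusted p = 1.65e-106) with RapaLink-1.

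Psmd4 (chr3:95032694-95042614, ENSMUSG00000005625) had nearly one level with all 3 compounds. It read 193, 199 and 192 CPM with DMSO, 150.5, 146 and 146 with rapamycin, 155, 149 and 148 with Torin1 and 143, 148 and 144 with RapaLink-1. All 9 treated libraries lay below the DMSO libraries and overlapped with one another. The log2 fold changes were -0.40 (SE 0.0211, adjusted p = 1.4e-41), -0.37 (SE 0.0211, adjusted p = 1.37e-38) and -0.42 (SE 0.0212, adjusted p = 1.09e-44). From rapamycin the change was 0.03 (SE 0.0219, adjusted p = 0.227) with Torin1 (95% interval -0.013 to 0.073) and -0.023 (SE 0.022, adjusted p = 0.36) with RapaLink-1 (95% interval -0.067 to 0.02). Those intervals leave out a further fall of the size seen in Psmd1. With upper-quartile scaling both differences became small rises (0.093, adjusted p = 7.71e-05, and 0.052, adjusted p = 0.033), and with a minimum mean of 5 CPM that for Torin1 did (0.063, adjusted p = 0.00635).

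The 8 lid subunits among the members had the lowest medians of any role with Torin1 and RapaLink-1, -1.08 and -1.05, after -0.49 with rapamycin. Psmd14 (chr2:61711694-61800376, ENSMUSG00000026914), the deubiquitinase, read 189.9, 188 and 191 CPM with DMSO, 134, 132 and 138 with rapamycin, 84.1, 86.8 and 84.0 with Torin1 and 89.8, 87.7 and 88.6 with RapaLink-1. With the 3 compounds in turn it changed by -0.49 (SE 0.0216, adjusted p = 8.14e-51), -1.16 (SE 0.0231, adjusted p = 1.01e-98) and -1.10 (SE 0.023, adjusted p = 1.54e-95). Psmd3, a scaffold subunit with the largest fall of the lid under Torin1, read 370.4, 363 and 368 CPM with DMSO, 248, 236 and 246 with rapamycin, 157, 159 and 159 with Torin1 and 162, 168 and 162 with RapaLink-1. It changed by -0.59 (SE 0.0183, adjusted p = 1.92e-70), -1.21 (SE 0.0193, adjusted p = 1.02e-113) and -1.16 (SE 0.0192, adjusted p = 3.39e-111).

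Psmd7, the structural partner of Psmd14, had the highest level per length in the lid, 136 ± 0.97 RPKM with DMSO. It read 305, 306 and 309 CPM with DMSO, 225, 217 and 213 with rapamycin, 136, 141 and 138 with Torin1 and 136, 135 and 133 with RapaLink-1. Changes against DMSO were -0.49, -1.15 and -1.18. In each of these 3 lid genes the rapamycin libraries lay between those of DMSO and those of the other compounds.

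Psmd8 (chr7:29174188-29180701, ENSMUSG00000030591) changed least in the lid. It read 95.3, 94.1 and 94.2 CPM with DMSO, 88.9, 90.4 and 87.0 with rapamycin, 70.5, 73.0 and 72.8 with Torin1 and 70.9, 70.6 and 71.7 with RapaLink-1. With rapamycin it stood at 93.8% of its DMSO level, -0.092 (SE 0.0261, adjusted p = 0.00122), a call that was lost with upper-quartile scaling (-0.029, adjusted p = 0.338), with total counts (-0.0088, adjusted p = 0.791) and with a minimum mean of 5 CPM (-0.034, adjusted p = 0.228). Torin1 and RapaLink-1 gave -0.39 (SE 0.0271, adjusted p = 3.27e-30) and -0.41 (SE 0.0271, adjusted p = 3.4e-32). The other lid subunits, Psmd6, Psmd11, Psmd12 and Psmd13, changed by -0.58 to -0.32 with rapamycin and by -1.11 to -0.90 with Torin1. Psmd11 is uncertain, since the transcript A730017L22Rik is 97.9% identical to it over 1501 bases and rose by 0.54, 1.49 and 1.504, with 7.52% as many counts. Psmd13 shares 10.1% of its exonic bases with Sirt3 and Psmb7 shares 11.8% with Nek6, both on the opposite strand.

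**Figure D3:**
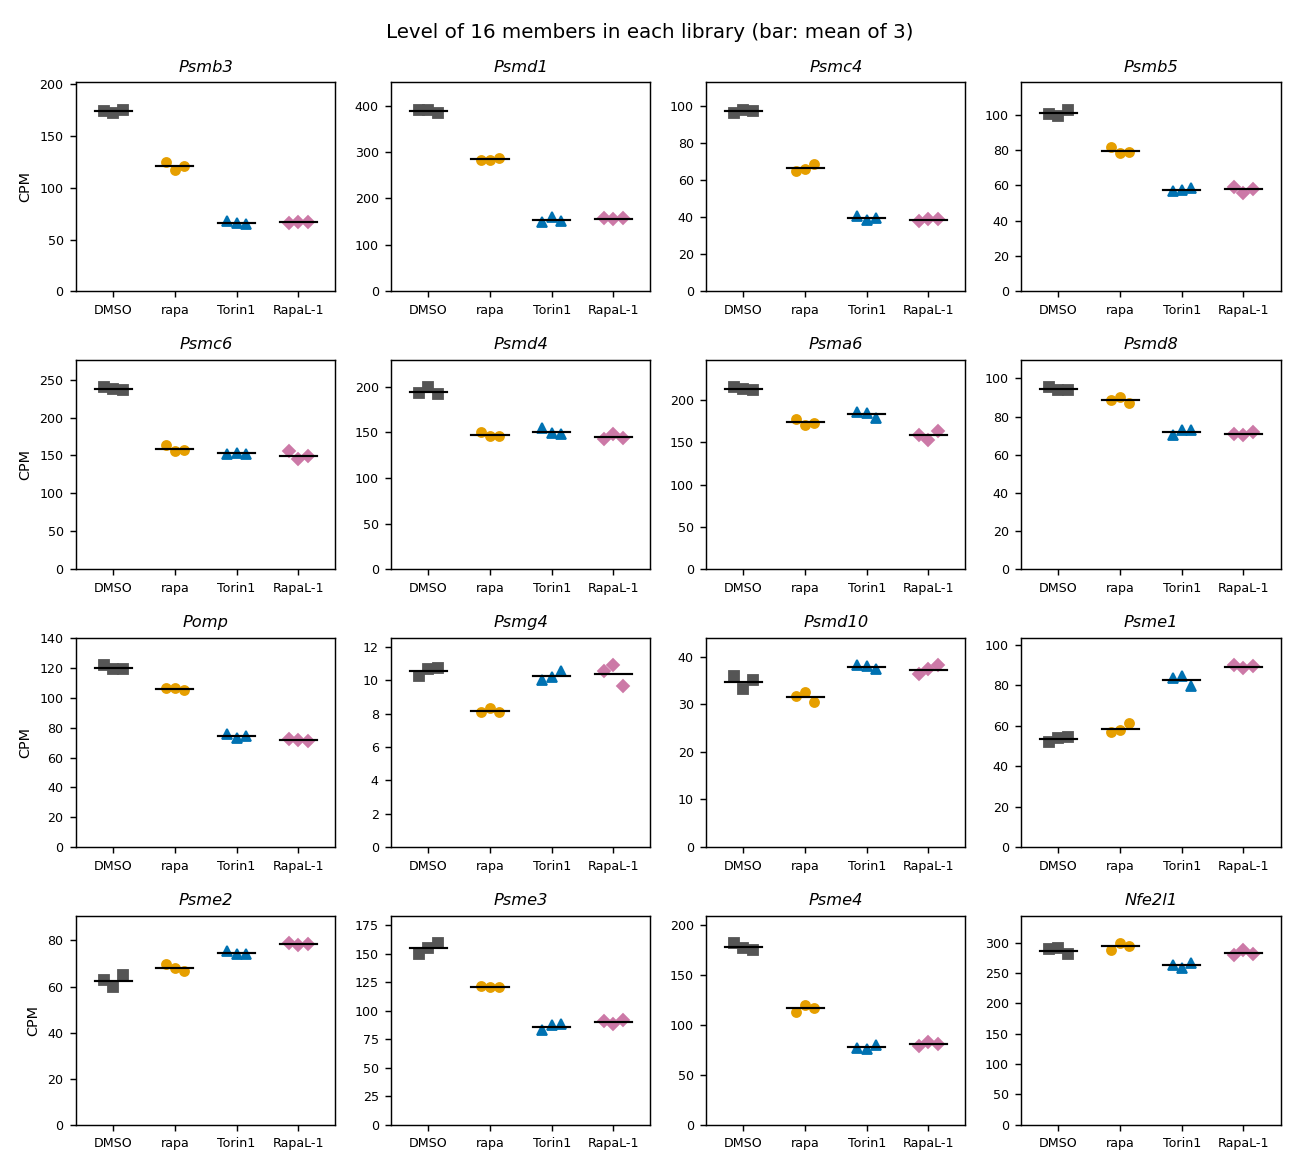
Level in CPM (vertical axes from 0, each panel with its own range) of 16 members in each library, with 1 point per library and a bar at the mean of 3 (rapa, rapamycin; RapaL-1, RapaLink-1). Psmb3, Psmd1 and Psmc4 step down from DMSO to rapamycin and again to Torin1 and RapaLink-1, Psmc6, Psmd4 and Psma6 lack most of the second step, and Psme1 and Psme2 step upward.

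The subunits of one complex thus had unequal changes. Over the 31 tested core and cap subunits the SD of the log2 fold change was 0.119 with rapamycin, 0.289 with Torin1 and 0.26 with RapaLink-1, and every one of the 31 had its 3 treated libraries below all 3 DMSO libraries with each compound, as did 33.6%, 38.5% and 38.6% of all genes. Levels per length lay further apart with Torin1 and RapaLink-1. The subunit with the highest level per length, Psmb1, stood 9.06-fold above the lowest, Psmd13, with DMSO, 9.43-fold with rapamycin, 14.5-fold with Torin1 and 13.6-fold with RapaLink-1. With the length of the principal transcript in place of all exonic bases, these ratios of the highest to the lowest subunit were 6.31, 5.97, 7.95 and 7.58, so the order of levels depends on the length used while the ratio was larger with Torin1 and RapaLink-1 than with DMSO either way. The highest subunit was then Psma7, or Psma6 with Torin1, in place of Psmb1.

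Activators that replace the cap went in opposite directions. Psme1 and Psme2, which encode the alpha and beta chains of the PA28 ring known to be raised by interferon, rose, while Psme3 (the nuclear PA28 gamma) and Psme4 (PA200, the largest activator) fell. Psme1 (chr14:55578123-55581529, ENSMUSG00000022216) read 52.1, 54.0 and 54.3 CPM with DMSO, 56.9, 57.9 and 61.2 with rapamycin, 83.9, 84.8 and 79.7 with Torin1 and 90.0, 88.5 and 89.6 with RapaLink-1. The rises amounted to 0.14 (SE 0.0317, adjusted p = 7.01e-05), 0.63 (SE 0.0301, adjusted p = 3.58e-47) and 0.74 (SE 0.0298, adjusted p = 2.73e-56). The 4 groups did not overlap, and RapaLink-1 was the highest.

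Psme2 (chr14:55587441-55591113), its neighbour on chromosome 14, read 62.8, 59.9 and 64.8 CPM with DMSO, 69.7, 67.9 and 66.7 with rapamycin, 75.2, 74.2 and 74.3 with Torin1 and 78.8, 78.1 and 78.3 with RapaLink-1. The log2 fold changes were 0.12 (SE 0.0298, adjusted p = 0.000159), 0.25 (SE 0.0295, adjusted p = 1.78e-14) and 0.33 (SE 0.0293, adjusted p = 3.51e-21). Psme2b, a copy of Psme2 on chromosome 11 with 99.4% identity over 794 bases, read 3.07, 3.22 and 3.1 CPM with DMSO, 4.13, 4.57 and 4.53 with rapamycin, 3.28, 4.34 and 4.83 with Torin1 and 4.77, 4.14 and 4.55 with RapaLink-1. It rose by 0.50 (SE 0.116, adjusted p = 8.35e-05), 0.42 (SE 0.118, adjusted p = 0.000665) and 0.52 (SE 0.116, adjusted p = 2.8e-05). Reads of these genes can be split between them, so both values are uncertain, and Psme2b did not differ between the compounds beyond its spread (95% interval -0.12 to 0.31 for RapaLink-1 against Torin1).

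Psme4 (chr11:30771726-30880361, ENSMUSG00000040850) fell about as far as the cap it can replace. It read 182, 177 and 175 CPM with DMSO, 113, 120.2 and 117 with rapamycin, 77.3, 75.5 and 80.2 with Torin1 and 78.6, 82.6 and 81.4 with RapaLink-1. Against DMSO its log2 values were -0.61 (SE 0.023, adjusted p = 7.72e-59), -1.20 (SE 0.0245, adjusted p = 7.33e-97) and -1.14 (SE 0.0243, adjusted p = 5.38e-94). Psme3 read 149.8, 155 and 159 CPM with DMSO, 122, 121 and 121 with rapamycin, 83.3, 87.1 and 88.0 with Torin1 and 90.8, 88.5 and 92.0 with RapaLink-1. It changed by -0.35 (SE 0.023, adjusted p = 6.14e-32), -0.84 (SE 0.0243, adjusted p = 1.26e-75) and -0.77 (SE 0.0241, adjusted p = 6.78e-71), and its 3 RapaLink-1 libraries lay just above those of Torin1.

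The inhibitor Psmf1 (PI31), which binds the core and takes part in its transport, read 40.9, 37.9 and 39.8 CPM with DMSO, 40.2, 40.8 and 40.6 with rapamycin, 43.8, 44.6 and 41.3 with Torin1 and 43.9, 43.0 and 42.9 with RapaLink-1. It rose with Torin1, 0.13 (SE 0.0368, adjusted p = 0.0011), and with RapaLink-1, 0.13 (SE 0.0368, adjusted p = 0.000921). With rapamycin its value was 0.035 (SE 0.037, adjusted p = 0.43) and its libraries overlapped with DMSO. Other choices of scaling or filter made that value a rise as well (0.098 with upper-quartile scaling, 0.119 with total counts and 0.093 with a minimum mean of 5 CPM).

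Assembly chaperones of the core are PSMG1 to PSMG4, which arrange the alpha ring, and POMP, which brings in the beta subunits and is consumed when the core matures. All 5 genes fell with rapamycin and 4 fell with Torin1 and with RapaLink-1. Pomp (chr5:147860461-147876456, ENSMUSG00000029649) read 122, 119.7 and 119.6 CPM with DMSO, 107, 107 and 105 with rapamycin, 75.6, 73.4 and 74.5 with Torin1 and 72.2, 71.8 and 71.0 with RapaLink-1. Relative to DMSO the changes were -0.18 (SE 0.0241, adjusted p = 1.78e-11), -0.69 (SE 0.0256, adjusted p = 4.42e-61) and -0.75 (SE 0.0257, adjusted p = 4.33e-65). Most of its fall thus lay between rapamycin and the other compounds, with a difference of -0.51 (SE 0.0261, adjusted p = 1.16e-43) for Torin1.

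Psmg4 (chr13:34162964-34178172, ENSMUSG00000071451) showed the opposite order. It read 10.2, 10.7 and 10.8 CPM with DMSO, 8.09, 8.37 and 8.09 with rapamycin, 10.0, 10.2 and 10.6 with Torin1 and 10.6, 10.9 and 9.65 with RapaLink-1. Rapamycin lowered it, to 77.5% of the DMSO level, -0.37 (SE 0.0723, adjusted p = 3e-06). With Torin1 and RapaLink-1 its libraries overlapped with those of DMSO, at -0.035 (SE 0.0694, adjusted p = 0.647) and -0.025 (SE 0.0692, adjusted p = 0.748), with 95% intervals of -0.17 to 0.10 and -0.16 to 0.11. The difference between Torin1 and rapamycin passed the test, 0.33 (SE 0.0732, adjusted p = 2.32e-05), as did that between RapaLink-1 and rapamycin, 0.34 (SE 0.0731, adjusted p = 1.34e-05).

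Psmg1, the partner of Psmg2, is named after its values were seen. Its log2 fold changes were -0.53 with rapamycin, -0.34 with Torin1 and -0.50 with RapaLink-1. Its Torin1 level exceeded its rapamycin level by 0.19 (SE 0.0409, adjusted p = 1.12e-05). By all exonic bases, Psmg2 had the highest level per length of these chaperones over the 12 libraries, a rank that depends on the length used. It read 40.9, 42.0 and 41.7 CPM with DMSO, 39.1, 34.9 and 35.9 with rapamycin, 34.5, 34.7 and 34.3 with Torin1 and 33.1, 30.6 and 32.4 with RapaLink-1, and it changed by -0.18 (SE 0.0382, adjusted p = 1.68e-05), -0.27 (SE 0.0388, adjusted p = 2.69e-10) and -0.38 (SE 0.0393, adjusted p = 4.23e-17). Psmg3 changed by -0.20, -0.39 and -0.45, and its fall with rapamycin was lost with total counts as the scaling (-0.11, adjusted p = 0.0762).

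Psmd5, Psmd9 and Psmd10 encode chaperones of the base, which bind the ATPases before the cap is joined. Psmd5 (S5b) read 139.5, 139 and 144 CPM with DMSO, 101, 97.4 and 96.9 with rapamycin, 76.2, 79.6 and 76.4 with Torin1 and 86.3, 86.4 and 85.8 with RapaLink-1. The changes against DMSO were -0.52 (SE 0.024, adjusted p = 5.95e-48), -0.86 (SE 0.025, adjusted p = 2.83e-75) and -0.71 (SE 0.0246, adjusted p = 1.83e-64). Its RapaLink-1 libraries lay above its Torin1 libraries, by 0.15 (SE 0.0269, adjusted p = 4.88e-07), the largest rise between these compounds among the members. Psmd9 (p27) fell too, with -0.25, -0.55 and -0.64, and 25.5% of its exonic bases overlap Gm26745 on the opposite strand.

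Psmd10 (chrX:140948429-140956728, ENSMUSG00000031429), which encodes gankyrin, fell with rapamycin and rose with Torin1 and RapaLink-1. It read 35.9, 33.3 and 35.1 CPM with DMSO, 31.8, 32.6 and 30.5 with rapamycin, 38.2, 38.0 and 37.4 with Torin1 and 36.5, 37.4 and 38.2 with RapaLink-1. Rapamycin gave -0.14 (SE 0.0401, adjusted p = 0.00117), Torin1 0.12 (SE 0.039, adjusted p = 0.00312) and RapaLink-1 0.10 (SE 0.039, adjusted p = 0.0135). Levels were thus lower than with DMSO in the rapamycin libraries and higher in the others, and the difference between Torin1 and rapamycin was 0.26 (SE 0.0397, adjusted p = 1.34e-09). Both small changes against DMSO depended on settings. The fall with rapamycin was lost with upper-quartile scaling (-0.079, adjusted p = 0.0788), total counts (-0.059, adjusted p = 0.202) and a minimum mean of 5 CPM (-0.084, adjusted p = 0.0507), and the rise with RapaLink-1 without DMSO replicate 2 (0.072, adjusted p = 0.124), without RapaLink-1 replicate 3 (0.083, adjusted p = 0.0823) and with no filter (0.087, adjusted p = 0.0627).

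Nfe2l1 (chr11:96817414-96829968, ENSMUSG00000038615) itself changed little. It read 289, 290.4 and 281 CPM with DMSO, 287, 299 and 294 with rapamycin, 263, 259 and 266 with Torin1 and 280.2, 288 and 281 with RapaLink-1. The log2 fold changes were 0.033 (SE 0.0182, adjusted p = 0.108), -0.13 (SE 0.0184, adjusted p = 1.6e-10) and -0.02 (SE 0.0183, adjusted p = 0.313), so that its message stood at 102%, 91.5% and 98.6% of the DMSO level while the core and cap stood at 71.9%, 53.4% and 53.1%. The fall with Torin1 was not called with upper-quartile scaling (-0.0017, adjusted p = 0.935) or a minimum mean of 5 CPM (-0.037, adjusted p = 0.054). Values for rapamycin and RapaLink-1 became rises with upper-quartile scaling (0.096 and 0.117), total counts (0.117 and 0.055) and a minimum mean of 5 CPM (0.091 and 0.066). The rapamycin value was also called a rise with only the 6 libraries compared (0.057, adjusted p = 0.00596), without rapamycin replicate 1 (0.047, adjusted p = 0.0301), and without any 1 Torin1 or RapaLink-1 library (adjusted p = 0.0197 to 0.0276). These values are of the message. The NFE2L1 protein, which is controlled by its release from the endoplasmic reticulum and its own degradation, was not measured.

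Psmc3ip, kept for its symbol only, read 21.5, 20.0 and 20.3 CPM with DMSO, 18.9, 17.9 and 18.8 with rapamycin, 13.2, 13.0 and 14.4 with Torin1 and 13.3, 11.1 and 13.0 with RapaLink-1. It changed by -0.15 (SE 0.053, adjusted p = 0.00927), -0.60 (SE 0.0567, adjusted p = 6.69e-20) and -0.73 (SE 0.0578, adjusted p = 1.55e-25). The fall with rapamycin was lost without DMSO replicate 1 (-0.12, adjusted p = 0.0814), with upper-quartile scaling (-0.089, adjusted p = 0.14), with total counts (-0.069, adjusted p = 0.265) and with a minimum mean of 5 CPM (-0.094, adjusted p = 0.103). It shares 21.2% of its exonic bases with Mlx on the opposite strand.

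From rapamycin to Torin1, 38 of the 47 members fell and 7 rose, with a median of -0.41, where 33.2% of all genes fell and 34.2% rose. In the core and cap 29 of 31 subunits fell, Psma6 rose and Psmd4 did not pass the test. From rapamycin to RapaLink-1, 39 members fell and 5 rose, with a median of -0.42, where 33% of all genes fell and 32% rose, and 30 of the 31 core and cap subunits fell. The 4 largest further falls were those of Psmd1, Psmb3, Psmd13 and Psmc4 with both compounds, at -0.89, -0.87, -0.79 and -0.76 with Torin1 and -0.86, -0.86, -0.77 and -0.79 with RapaLink-1. At the other end, Psme1, Psmg4 and Psmd10 rose, at 0.49, 0.33 and 0.26 with Torin1 and 0.60, 0.34 and 0.24 with RapaLink-1.

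**Figure D4:**
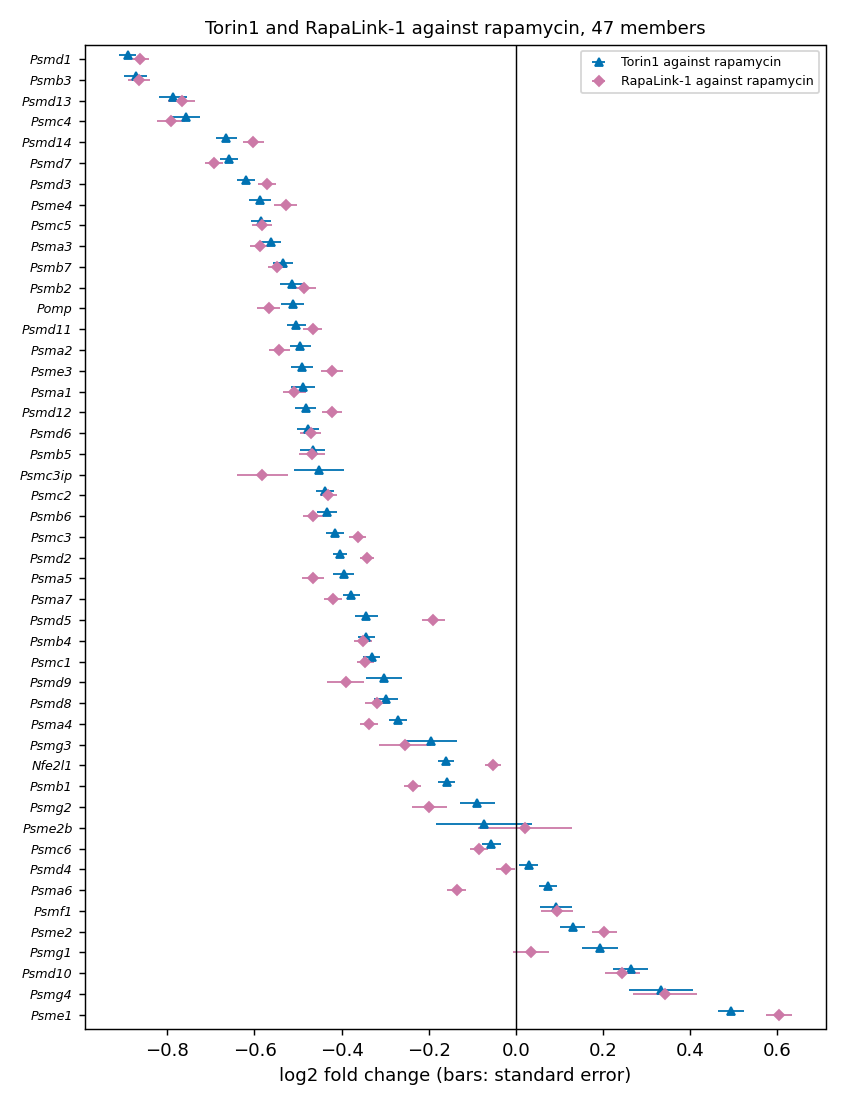
Log2 fold change of the 47 tested members from rapamycin to Torin1 and from rapamycin to RapaLink-1 (horizontal axis, bars the standard error), ordered by the value for Torin1. Both compounds are compared with the same 3 rapamycin libraries. Values run from -0.89 (Psmd1) to 0.49 (Psme1) with Torin1, and Psma6 lies on opposite sides of 0 with the 2 compounds.

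Torin1 and RapaLink-1 both act at the mTOR kinase site. From Torin1 to RapaLink-1, 7 members rose and 6 fell, with a median of -0.0071. These shares are near those of all genes, of which 16.7% rose and 16.4% fell, so the counts show nothing particular to the members. Psma4, Psma5, Psma6 and Psmb1 of the core and the chaperones Psmg1 and Psmg2 were lower with RapaLink-1. Higher were the cap subunits Psmc3 and Psmd2, the activators Psme1, Psme2 and Psme3, the base chaperone Psmd5 and Nfe2l1. Of these, Psma4, Psma5, Psmb1, Psmc3, Psme2, Psme3 and Psmg2 each lost their call with at least 1 other setting or library left out. The count of falls ranged from 3 to 7 when single libraries were left out and was 2 with total counts, and that of rises from 6 to 10 and 13. For the 25 core and cap subunits that did not pass the test, the 95% intervals of the log2 difference lay within -0.11 and 0.11, so a difference as large as that of Psma6 lies outside them.

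The wider ubiquitin-proteasome pathway was followed with 48 further genes in 6 lists, all of which were tested. With rapamycin 9 rose and 30 fell, with Torin1 16 rose and 31 fell, and with RapaLink-1 15 rose and 31 fell, with medians of -0.11, -0.17 and -0.19. Of all genes tested, 27.5%, 39.8% and 38.7% rose and 32.2%, 38.3% and 37.9% fell, so the rises among these 48 with Torin1 and RapaLink-1 are no more frequent than among all genes.

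Of the 9 genes for proteins that sit on the proteasome, 7 fell and 1 rose with rapamycin, and all 9 fell with Torin1 and with RapaLink-1. The 1 that rose with rapamycin was Sem1, by 0.086. It encodes a small lid subunit whose symbol lies outside the rule, so the falls of all tested cap subunits given above leave it out. Adrm1 (RPN13), a ubiquitin receptor of the cap, read 155, 156 and 153 CPM with DMSO, 111, 104 and 107 with rapamycin, 72.8, 71.4 and 69.2 with Torin1 and 69.1, 71.7 and 69.7 with RapaLink-1. It changed against DMSO by -0.52 (SE 0.0237, adjusted p = 4.16e-49), -1.12 (SE 0.0253, adjusted p = 5.07e-91) and -1.14 (SE 0.0254, adjusted p = 8.53e-92). Uchl5, the deubiquitinase that ADRM1 holds on the cap, read 56.8, 55.8 and 57.1 CPM with DMSO, 39.6, 37.7 and 38.5 with rapamycin, 24.4, 24.2 and 22.6 with Torin1 and 23.1, 26.3 and 23.4 with RapaLink-1. It had the largest fall of this list with Torin1, with -0.55 (SE 0.0362, adjusted p = 7.8e-32), -1.26 (SE 0.0398, adjusted p = 5.26e-70) and -1.22 (SE 0.0396, adjusted p = 1.75e-68). The other cap-bound deubiquitinase, Usp14, had nearly 1 level with all compounds, with -0.41, -0.38 and -0.45.

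The immunoproteasome subunits Psmb8, Psmb9 and Psmb10 replace Psmb5, Psmb6 and Psmb7 in cells exposed to interferon. All 3 rose with Torin1 and with RapaLink-1. Psmb8 read 0.683, 0.477 and 0.725 CPM with DMSO, 0.977, 1.12 and 0.982 with rapamycin, 2.35, 2.3 and 2.22 with Torin1 and 3.0, 3.92 and 2.98 with RapaLink-1. Against DMSO it rose by 0.69 (SE 0.236, adjusted p = 0.0081), 1.85 (SE 0.199, adjusted p = 2.86e-16) and 2.38 (SE 0.184, adjusted p = 3.62e-26), the first not called without DMSO replicate 2 (0.53, adjusted p = 0.067). Per length it reached only 1.21 ± 0.196 RPKM with RapaLink-1, where Psmb5 stood at 66.1 ± 2.1 RPKM. Psmb10 read 28.6, 28.7 and 27.5 CPM with DMSO, 23.9, 25.02 and 24.7 with rapamycin, 37.9, 38.8 and 37.7 with Torin1 and 42.0, 47.5 and 45.7 with RapaLink-1. It changed by -0.20 (SE 0.0444, adjusted p = 2.41e-05), 0.43 (SE 0.0411, adjusted p = 1.2e-19) and 0.68 (SE 0.0399, adjusted p = 4.35e-37). Per length it was the highest of the 3. It stood at 16.6 ± 0.374 RPKM with DMSO and 26.4 ± 1.64 with RapaLink-1.

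Psmb9 read 0.552, 0.268 and 0.391 CPM with DMSO, 0.642, 0.511 and 0.554 with rapamycin, 0.805, 0.567 and 0.587 with Torin1 and 1.11, 1.04 and 1.19 with RapaLink-1, near the lower limit of detection. Its value was 0.48 (SE 0.315, adjusted p = 0.188) with rapamycin, 0.66 (SE 0.309, adjusted p = 0.0451) with Torin1 and 1.44 (SE 0.277, adjusted p = 1.1e-06) with RapaLink-1. The Torin1 call was lost without DMSO replicate 2 (0.44, adjusted p = 0.213), DMSO replicate 3 (0.62, adjusted p = 0.0921), Torin1 replicate 1 (0.49, adjusted p = 0.193) or RapaLink-1 replicate 3 (0.65, adjusted p = 0.0507). It was also lost with DESeq2 (adjusted p = 0.0818), with no filter (adjusted p = 0.0873) and with DESeq2 size factors (adjusted p = 0.0504).

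Among the 6 ubiquitin shuttle receptors, which carry tagged proteins to the cap, 5 fell with Torin1 and with RapaLink-1 and Sqstm1 rose. Rad23b had the largest fall with Torin1, its values being -0.45 (SE 0.0169, adjusted p = 2.61e-59), -0.74 (SE 0.0173, adjusted p = 7.02e-89) and -0.71 (SE 0.0172, adjusted p = 3.58e-86). Sqstm1 (p62), which also delivers cargo to autophagosomes, read 388, 386 and 390.1 CPM with DMSO, 371, 363 and 359 with rapamycin, 595, 600.2 and 604 with Torin1 and 620.3, 636 and 633 with RapaLink-1. Against DMSO it gave -0.091 (SE 0.0167, adjusted p = 5.26e-07), 0.63 (SE 0.0162, adjusted p = 1.94e-82) and 0.70 (SE 0.0162, adjusted p = 3.26e-89). The rapamycin call of Sqstm1 was lost with upper-quartile scaling, total counts and a minimum mean of 5 CPM (adjusted p = 0.129, 0.694 and 0.059), and 17.3% of its exonic bases overlap Mrnip on the opposite strand.

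Of the 8 genes for the segregase p97 and its cofactors, 6 fell with rapamycin, 7 with Torin1 and 6 with RapaLink-1. Vcp, which encodes p97, the ATPase that pulls tagged proteins out of membranes and complexes, read 1042, 1052 and 1057 CPM with DMSO, 782, 787 and 798 with rapamycin, 494, 489.9 and 487 with Torin1 and 506, 506 and 499.9 with RapaLink-1. It changed by -0.41 (SE 0.0148, adjusted p = 9.06e-62), -1.10 (SE 0.0153, adjusted p = 1.28e-122) and -1.06 (SE 0.0153, adjusted p = 3.91e-120). The cofactor Ubxn1 rose, by 0.091, 0.40 and 0.32. The 6 ubiquitin genes and E1 enzymes were split, with 5 falls and no rise under rapamycin and 2 falls and 4 rises under each of the other compounds. In so short a list, nothing is read from these counts beside the shares of all genes given above. Uba1, the main E1 enzyme that activates ubiquitin, fell, with -0.26 (SE 0.0155, adjusted p = 2.46e-35), -0.47 (SE 0.0156, adjusted p = 1.52e-66) and -0.38 (SE 0.0156, adjusted p = 6.75e-55), while its relative Uba6 read 87.7, 83.0 and 83.3 CPM with DMSO, 79.8, 82.9 and 80.5 with rapamycin, 118, 122 and 117 with Torin1 and 95.8, 98.7 and 95.5 with RapaLink-1 and rose with Torin1, 0.49 (SE 0.0256, adjusted p = 8.98e-43), and RapaLink-1, 0.19 (SE 0.0263, adjusted p = 4.49e-11). The fall of Uba6 with rapamycin, -0.065 (SE 0.027, adjusted p = 0.0293), was lost under most other settings, among them the leaving out of DMSO replicate 1, rapamycin replicate 1 or 3 and each Torin1 or RapaLink-1 library.

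Of the 16 genes that control or partner NFE2L1, 5 rose and 5 fell with rapamycin, 7 and 8 with Torin1 and 6 and 9 with RapaLink-1. With rapamycin and Torin1 these shares lie near those of all genes given above, and nothing is read from them. Among its activators, Ddi2, the protease that cleaves NFE2L1, fell, with -0.20 (SE 0.029, adjusted p = 5.89e-10), -0.42 (SE 0.0298, adjusted p = 6.9e-29) and -0.32 (SE 0.0295, adjusted p = 5.46e-20), with 18.3% of its exonic bases shared with Rsc1a1. Ngly1, which removes its sugars, read 22.6, 23.9 and 24.0 CPM with DMSO, 25.1, 25.1 and 25.6 with rapamycin, 38.3, 36.9 and 36.9 with Torin1 and 32.8, 32.2 and 33.2 with RapaLink-1. It rose with Torin1, 0.67 (SE 0.0422, adjusted p = 5.8e-34), and with RapaLink-1, 0.48 (SE 0.0432, adjusted p = 6.28e-21), while its small rise with rapamycin, 0.11 (SE 0.0451, adjusted p = 0.0364), was lost without DMSO replicate 1 or without any 1 rapamycin library.

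Maff, a small MAF protein that binds DNA with it, rose by 0.81 (SE 0.0448, adjusted p = 1.91e-39), 1.30 (SE 0.0423, adjusted p = 3.29e-68) and 1.52 (SE 0.0413, adjusted p = 8.97e-79). Srebf1, which encodes SREBP1, read 142, 138 and 146 CPM with DMSO, 132, 132 and 136 with rapamycin, 97.7, 101 and 94.5 with Torin1 and 98.3, 99.7 and 97.1 with RapaLink-1. It fell with Torin1, -0.54 (SE 0.0241, adjusted p = 6.93e-51), and RapaLink-1, -0.53 (SE 0.0241, adjusted p = 8.16e-50), while its value with rapamycin, -0.091 (SE 0.023, adjusted p = 0.000277), was not called with upper-quartile scaling, total counts or a minimum mean of 5 CPM (adjusted p = 0.298, 0.798 and 0.194). Keap1, the adaptor that directs the degradation of the relative NFE2L2, fell, with -0.18, -0.71 and -0.55, with 10.9% of its exonic bases overlapped by Gm16754. Nfe2l2 itself gave -0.042 (SE 0.026, adjusted p = 0.155), -0.12 (SE 0.0263, adjusted p = 1.79e-05) and -0.057 (SE 0.0261, adjusted p = 0.0398). The sign of the last 2 turned with upper-quartile scaling (0.007 and 0.0804).

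**Figure D5:**
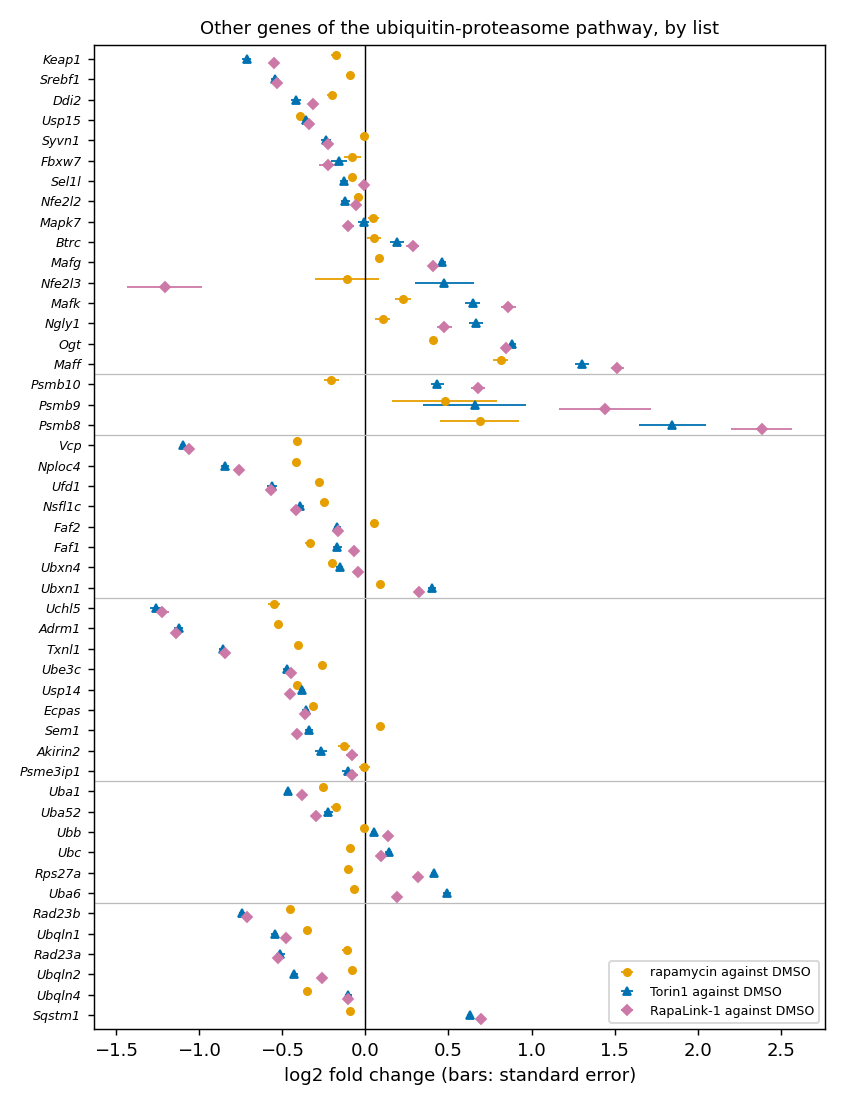
Log2 fold change against DMSO (horizontal axis, bars the standard error) of the 48 further genes of the pathway, grouped by list (separated by grey lines) and ordered within each by the change with Torin1. Values run from -1.26 (Uchl5) to 1.85 (Psmb8) with Torin1, and the proteasome-associated proteins all lie left of 0 with Torin1 and RapaLink-1.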

How the data were processed

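RNA of 12 MEF libraries (DMSO, rapamycin, Torin1 and RapaLink-1, 3 each, grouped by the treatment label) was analysed from the read counts per gene that the authors deposited, whole numbers with gene ID, position, strand and length per the file headers, used without change. The submitters' processing notes name Trimmomatic 0.36, STAR 2.5.2b, featureCounts, Subread 1.5.2, DESeq2 and GRCm38. The sources used here do not give the strand setting, how multi-mapping reads were handled or which annotation was counted. Members with a close copy (at least 95% identity over 300 bases) or over 10% exonic overlap, 14 in all, are therefore uncertain. Besides those whose copy or overlap is given with their values, these include Psma3, Psma4, Psma5, Psmb3, Psmc1 and Psmd2. The copies of these genes took 0.0601% (Psmc1) to 2.72% (Psma3) as many counts. Total counts of 30075870 to 39423703 per library set the counting error.

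Symbols came from GENCODE M21, which held 49056 of the 49315 IDs, and positions are those of the count tables. Of 75 listed pathway and marker genes 74 were matched, and Paaf1 was not analysed here. Genes were filtered with filterByExpr by group (15917 kept), scaled with TMM factors and tested with edgeR 4.0.16 (R 4.3.3) in a robust quasi-likelihood fit of all 12 libraries with group as the only term (8 residual degrees of freedom), with two-sided contrasts and Benjamini-Hochberg adjustment over all genes tested. The biological coefficient of variation was 1.48%. CPM use TMM-scaled totals, and RPKM divide them by all exonic bases of a gene. An exact permutation test of 3 libraries against 3 cannot go below 0.1 and was not used. Replicates of a group differed by more than sampling noise (chi-square over its degrees of freedom 1.34 to 2.06), so none was counted as a duplicate.

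The members and lists were chosen with earlier results of these data known. Named with full values were, in each role of 3 or more tested members, the highest level per length and the largest and smallest change with Torin1, all members of smaller roles, and Pomp, Psmd10, Nfe2l1, Psmb5, Psmd14, Psme3 and Psme4; of each further list the largest called rise and fall with Torin1, with 10 genes of known roles. Other genes are given by their role's range or were chosen after their values were seen. Copies were found by BLAST. Alternatives were other scalings (DESeq2 size factors, upper quartile, total counts), other filters (none, or a minimum mean of 5 CPM), DESeq2 1.42.0, limma 3.58.1 voom, the replicate number as a block, fits of the 6 libraries compared, leaving out each library, and, added after seeing the data, the members without uncertain ones or without Psmc3ip and Nfe2l1, and principal transcript lengths.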

Additional observations from a re-analysis of the deposited data

How the results depend on the processing

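Among values of single genes, 7955 kept their call, 131 lost a call, 74 gained one and 12 changed sign. Those 12 had a call in at least 1 of the fits compared. Sign changes without a call in either fit are counted among the 7955. Upper-quartile scaling moved the median of all genes to 0.1648 with Torin1 and 0.1634 with RapaLink-1 against DMSO (from 0.0385 and 0.026), and the members' medians relative to it were -0.90 and -0.84, as in the main analysis. It raised the share of rises among all called genes from 51% to 60.4% and 50.5% to 61.3%, and total counts raised it for rapamycin from 46.1% to 61%; upper-quartile scaling gave 57.4% there. For RapaLink-1 against Torin1 total counts gave 66.6% in place of 50.4%, and for RapaLink-1 against rapamycin upper-quartile scaling gave 59.4% in place of 49.2%. Members' medians with upper-quartile scaling were -0.37 (rapamycin against DMSO), -0.74 (Torin1), -0.68 (RapaLink-1), -0.35 (Torin1 against rapamycin) and -0.35 (RapaLink-1 against rapamycin). With total counts they were -0.34, -0.82 and -0.74 against DMSO, -0.46 for Torin1 against rapamycin and 0.0299 for RapaLink-1 against Torin1. A minimum mean of 5 CPM gave -0.38, -0.77 and -0.73 against DMSO and -0.40 for RapaLink-1 against rapamycin. Relative to the median of all genes, the members' medians against DMSO were then -0.38, -0.78 and -0.74, in place of -0.43, -0.90 and -0.84. Rises with rapamycin numbered 5 with upper-quartile scaling and 5 with total counts. Without uncertain members, rises numbered 1, 3 and 3 and the RapaLink-1 median was -0.77. From Torin1 to RapaLink-1, rises numbered 11 with DESeq2 size factors, 11 with upper-quartile scaling, 13 with total counts and 4 with no filter, and falls 2 with total counts and 3 with DESeq2. Leaving out single libraries gave medians of -0.45 to -0.41 from rapamycin to Torin1, and 3 to 7 falls from Torin1 to RapaLink-1. Signs turned for Uba6 with rapamycin (0.018, total counts), for Nfe2l2 with Torin1 (0.007, upper quartile) and RapaLink-1 (0.0804, upper quartile; 0.018, total counts; 0.029, minimum of 5 CPM), and for Nfe2l1 with RapaLink-1 (0.117, 0.055 and 0.066 in the same order). Against rapamycin, upper-quartile scaling turned Psmc6 with Torin1 (0.0076) and Psmd4 (0.052), Nfe2l1 (0.022) and Nfe2l2 (0.0598) with RapaLink-1. The cause of these changes was not tested.

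Replicate numbers did not pair the libraries: same-numbered libraries correlated at -0.039 to 0.059 in their deviations from group means and others at -0.048 to 0.041, and 4 of 12 libraries were closest to their own number. With the replicate number as a block, 42, 41 and 40 members fell against DMSO, and from Torin1 to RapaLink-1 8 rose and 7 fell. Depth did not limit most members, but Psma8 and Psmb11 could not be tested and Psmb8, Psmb9 and Psme2b rested on few counts.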
